A study of Mus musculus with 22 samples.

Results

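Carbonic anhydrases interconvert carbon dioxide and bicarbonate and so buffer pH inside and around cells. The 9 genes described here, Car2, Car3, Car4, Car7, Car8, Car10, Car11, Car12 and Car14, were taken by their mouse symbols, and all 20 probe sets of the array that carry one of those symbols were followed, of 45101 probe sets in all. The members were chosen by measured values, the large fall of Car3 in both Chd7 mutant and ICRF-193-treated cells, so the values of those comparisons are given as a description, without tests, and only the comparison of cells with and without Smo2 was tested. Of the 20 probe sets, 5 had a mean log2 signal over the 22 arrays at or above 6.437, the median of all probe sets, and they belong to 4 genes, Car2, Car3, Car10 and Car11. The other 15 were dim, and their values lie partly at the floor of 4 that was set on the log2 scale.

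The arrays (Affymetrix 430 2.0) profiled total RNA of cultured mouse cerebellar granule neurons (CGNs) prepared at postnatal day 7, in 3 experiments of a pair of groups each. Chd7 mutant CGNs (4 arrays), homozygous for a floxed Chd7 gene that Cre under the Atoh1 promoter deletes, were set against floxed CGNs without Cre (4 arrays), and Atoh1-Cre acts in the rhombic lip lineage, so that other cell types in the culture keep Chd7. CGNs given the topoisomerase II inhibitor ICRF-193 at 10 µM for 12 h (4 arrays) were set against CGNs given DMSO (4 arrays), and CGNs grown with Smo2 (3 arrays) against CGNs grown without it (3 arrays), Smo2 being an additive that the labels name without describing. All pups have the strain label C56Bl6/J, their sex was not recorded, and the labels call the cell type granule neuron progenitors and each array a biological replicate without saying whether replicates came from separate litters, so that p-values measure only the spread between these arrays.

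Family members differ in place and in activity. Car2, Car3 and Car7 are cytosolic enzymes, Car4 is anchored to the outer cell surface, and Car12 and Car14 span the membrane with the catalytic domain outside. Car8, Car10 and Car11 are carbonic anhydrase-related proteins that lack residues needed for catalysis; Car10 and Car11 are secreted proteins known as ligands of neurexins, and Car8, known for its high level in Purkinje cells, binds the type 1 inositol trisphosphate receptor.

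The groups carried the marks of their labels. Chd7 probe set 1437745_at averaged 9.47 ± 0.54 in mutant and 11.50 ± 0.23 in control CGNs (log2 signal, SD, n = 4 each), and its 4 mutant arrays lay below all control arrays. A second Chd7 probe set, 1448026_at, averaged 11.65 ± 0.25 in mutant and 11.89 ± 0.13 in control CGNs, with overlapping arrays. With Smo2, Gli1, a transcriptional target of hedgehog signalling, averaged 9.24 against 4.96 without Smo2. Of 5 hedgehog target and cell cycle genes at or above 6.437, limma called 5 higher with Smo2, beside 28.7% of all such genes. Among them, Ccnd1 averaged 13.13 with and 7.40 without Smo2, and Mki67, a marker of cycling cells, 13.05 and 10.17. The tested comparison thus sets cultures with high cell cycle genes against cultures where these were lower. The summed signal of 7 granule lineage markers ranged between 66445 and 69080 in mutant, 74187 and 78388 in control, 71197 and 75335 in ICRF-193, 74140 and 79059 in DMSO, 53428 and 58840 in Smo2 and 77017 and 79501 in cultures without Smo2. Zic1 and Neurod1 were the brightest, so the sum rests mainly on them, and Gabra6 was dim. With Smo2, limma called 5 of the 6 markers at or above 6.437 lower and 1, Atoh1, higher. Over all such genes, 37.6% were called lower and 28.7% higher. Atoh1 averaged 10.45 with and 8.71 without Smo2 (limma adjusted p = 2.31e-05), and it was lower with ICRF-193 without overlap (-0.90). Pax6, Zic1 and Zic2 were lower in mutant than in control arrays without overlap (-0.42, -0.15 and -0.14). That is 3 of the 6 markers at or above 6.437, with 0 higher, beside 9.19% of all such genes lower. Arrays 1 and 2 resembled each other, and so did arrays 3 and 4, in the Chd7 and ICRF-193 experiments; differences within each of these sets are given below. Y-linked genes were lower in mutant cultures, with a summed signal over 3 genes of 48.0 to 399 in mutant and 1221 to 1746 in control arrays, and Xist was higher by 0.75 (log2) in mutant cultures; the part of this in the results was not tested.

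Counted over the 20 probe sets, 4 were lower and 2 higher in Chd7 mutant arrays without overlap with control arrays, beside 5.33% and 5.32% of all 45101 probe sets. With ICRF-193, 6 were lower and 0 higher, beside 3.63% and 3.99% of all. Car3 gave 3 of the 4 and 4 of the 6 lower probe sets, and since these comparisons chose the members, nothing is read from the shares. With Smo2, 6 were lower and 1 higher without overlap, beside 22.5% and 18.7% of all. Of the 5 probe sets tested, 4 were called by limma with Smo2, all of them lower (2 of Car3 and 1 each of Car10 and Car11), where 61.3% of 22551 probe sets were called, 34.9% lower and 26.3% higher. When the limit on dim probe sets was dropped, 5 of the 20 were called, beside 30.0% of all, with probe sets of Car4 and Car8 in and Car11 out. Over all probe sets tested, 7877 were lower and 5937 higher, and 6194 and 7457 when arrays were centred on their medians, which moved the median difference by 0.12 from -0.10. The 4 member calls stayed lower under that centring.

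**Figure D1:**
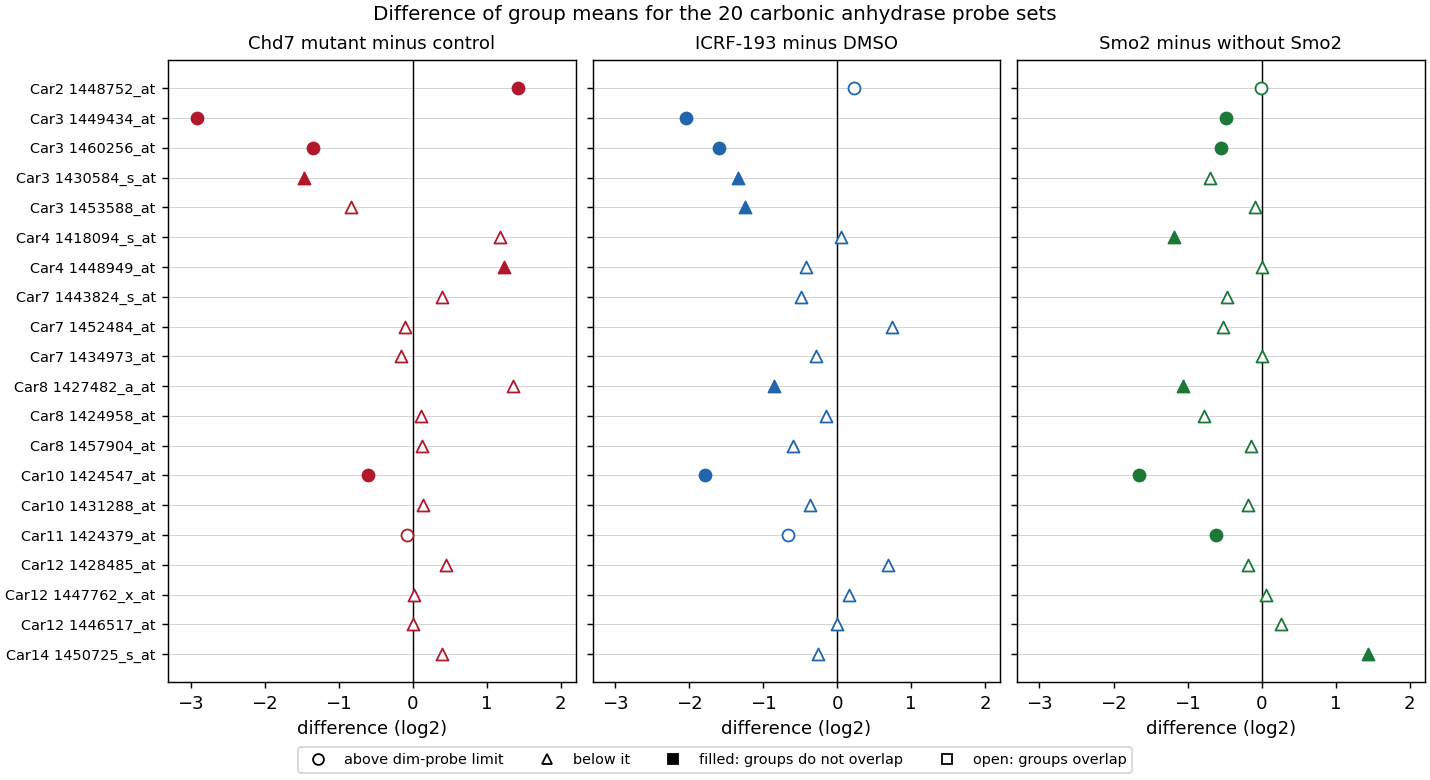
Difference of group means (x axis, log2) for the 20 carbonic anhydrase probe sets (rows) in the 3 experiments; circles lie above and triangles below the dim-probe limit, and filled symbols mark groups that do not overlap. All 4 Car3 probe sets lie left of 0 in every panel, and Car10 1424547_at does too, while Car2 1448752_at is a filled symbol right of 0 in the Chd7 mutant panel.

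Car3, a cytosolic enzyme with weak activity that is best known from skeletal muscle, fat and liver, was the member with the largest differences. Its brightest probe set, 1449434_at, read 7.60, 7.47, 6.99 and 7.68 in Chd7 mutant CGNs, against 10.96, 10.80, 9.71 and 9.94 in control CGNs (log2 signal, arrays 1 to 4). Every mutant array lay more than 2 log2 units below every control array, and the first pair of control arrays stood above the second. The difference of means was -2.92 (7.55-fold lower; 7.44 ± 0.31 in mutant, 10.35 ± 0.62 in control, SD, n = 4 each), and it was -3.35 within arrays 1 and 2 and -2.49 within arrays 3 and 4. Under ICRF-193 the 4 arrays read 7.67, 7.90, 8.31 and 8.33, against 10.22, 10.03, 10.21 and 9.90 under DMSO. These groups did not overlap either, and the difference of means was -2.04 (4.11-fold lower; 8.05 ± 0.32 and 10.09 ± 0.15, SD, n = 4 each), with -2.34 and -1.74 within the sets.

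**Figure D2:**
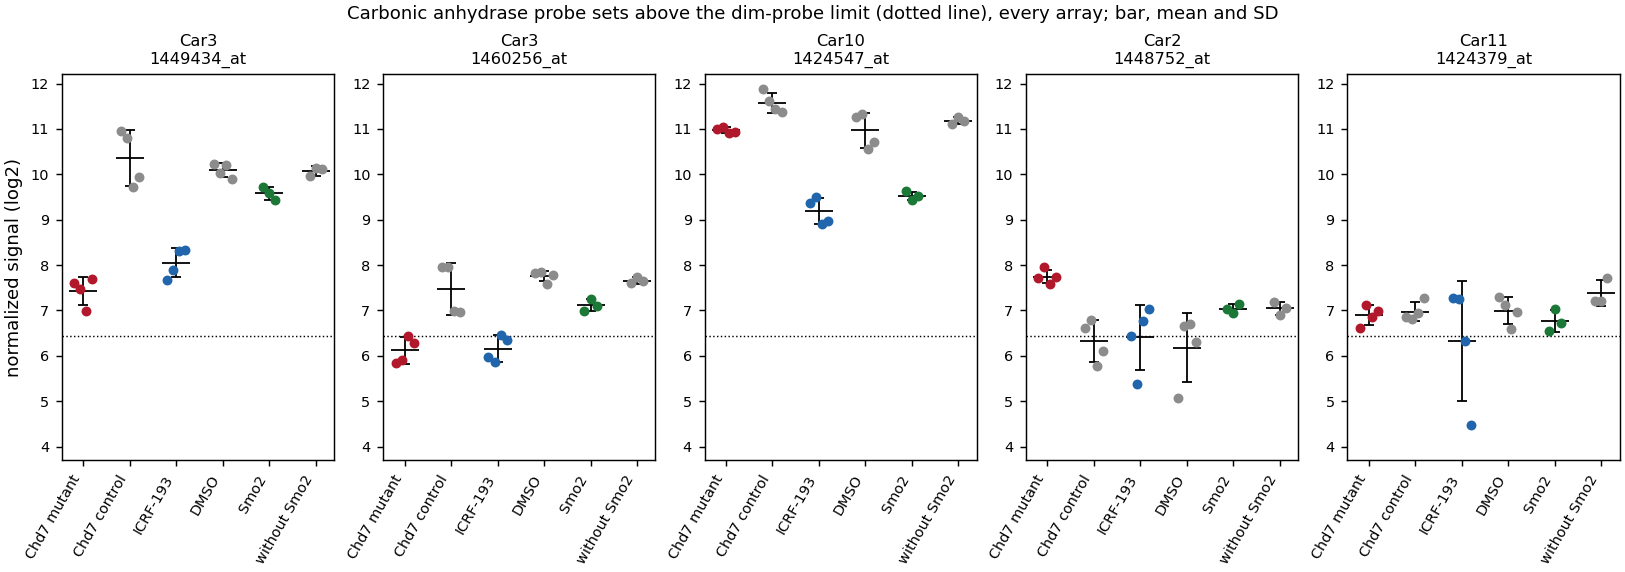
Normalized log2 signal (y axis) of the 5 brighter carbonic anhydrase probe sets in the 6 groups of arrays (x axis), with each array as a point, mean and SD as bars and the dim-probe limit of 6.437 dotted. Both Car3 probe sets are low in Chd7 mutant and ICRF-193 arrays, Car10 is low with ICRF-193 and with Smo2, and Car2 is high in Chd7 mutant arrays.

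Smo2 gave Car3 a smaller difference. Probe set 1449434_at read 9.73, 9.59 and 9.44 with Smo2, against 9.95, 10.15 and 10.11 without it. The groups did not overlap, and the difference of -0.49 (SE 0.097) passed limma's test with a Benjamini-Hochberg adjusted p of 0.00578. The second Car3 probe set above the limit, 1460256_at, read 6.996, 7.25 and 7.10 with Smo2, against 7.60, 7.73 and 7.65 without it, a difference of -0.54 (SE 0.086, limma adjusted p = 0.00212). Both falls are smaller than the Car3 differences in the other experiments, which were run on other cultures, and the difference between experiments was not tested. When all 22 arrays entered 1 fit, neither call held (adjusted p = 0.129 for 1449434_at and 0.0647 for 1460256_at).

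The 4 Car3 probe sets went the same way in every experiment. In Chd7 mutant against control CGNs, 1460256_at averaged 6.12 ± 0.29 and 7.47 ± 0.57 (-1.35), 1430584_s_at 5.24 ± 0.47 and 6.71 ± 0.66 (-1.47), and 1453588_at, with 3 of its 4 mutant arrays at the floor, 4.19 ± 0.38 and 5.03 ± 0.89 (-0.84). The last was the only Car3 probe set whose mutant and control arrays overlapped. In ICRF-193 against DMSO, the same probe sets differed by -1.60, -1.34 and -1.25, and none overlapped. In Smo2 against cultures without it, the dim ones, 1430584_s_at and 1453588_at, differed by -0.69 and -0.09 with overlapping arrays. Across the 22 arrays, after each experiment's mean was subtracted, 1449434_at correlated with the other 3 at Pearson r = 0.92, 0.79 and 0.80, values that rest on shared arrays and on the same gene. The s_at suffix marks a probe set that can match transcripts of more than 1 gene.

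Ordered by mean, Car3 1449434_at was highest in Chd7 control (10.35), DMSO (10.09) and cultures without Smo2 (10.07), which overlapped their neighbours in that order. Smo2 cultures (9.59) came next and did not overlap their neighbours in the order, cultures without Smo2 and ICRF-193 (8.05), and ICRF-193 arrays overlapped Chd7 mutant arrays (7.44). Levels across experiments compare separate cultures and are given as a description.

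Among 10772 genes with a probe set above the limit, Car3 ranked 1 for the smaller of its 2 falls, the value for which it was proposed. Ptprk, a receptor phosphatase, came next, with -1.68 in Chd7 mutant and -1.89 in ICRF-193 cultures, followed by Brinp3 (-1.66 and -2.13). Both are long genes, of 522578 and 406844 bp, while Car3 spans 8844 bp (RefSeq annotation of GRCm38.p6) and is longer than only 21% of the 10748 genes with a known length. Of the 2547 genes under 10 kb, the 10th percentile of differences was -0.29 in mutant against control CGNs and -0.28 in ICRF-193 against DMSO, and Car3 lay below both. With Smo2 it lay above the 10th percentile, which was -0.89.

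**Figure D3:**
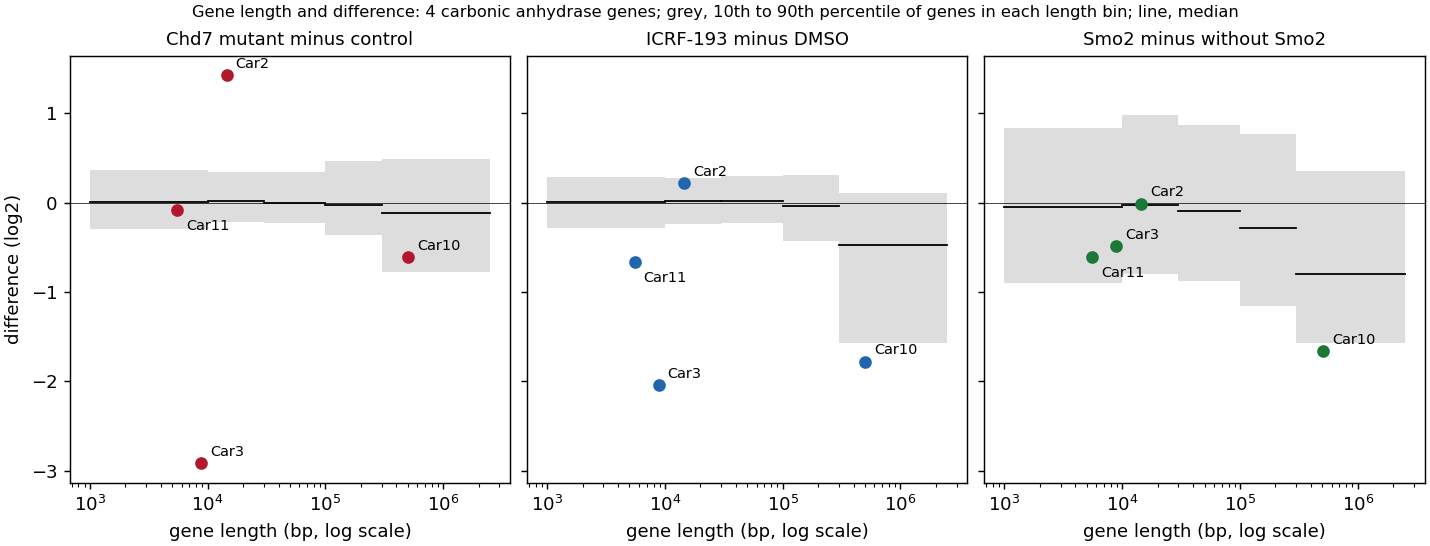
Difference of group means (y axis, log2) against gene length (x axis, bp, log scale) for the brightest probe sets of Car2, Car3, Car10 and Car11 in the 3 experiments; grey spans the 10th to 90th percentile of all genes in a length bin and the line is their median. Car3 at 8844 bp lies below the grey band with Chd7 loss and with ICRF-193, and Car10 at 504947 bp lies below it with ICRF-193 and with Smo2.

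The genes whose signal followed Car3 most closely over the 22 arrays were Fgf13 and Rbfox1 (Pearson r = 0.91 each), Adamts6 and Tex14 (0.90 each) and Chd7 itself (0.89, probe set 1437745_at), after subtraction of each experiment's mean. Chd7 probe set 1437745_at was lower in the ICRF-193 cultures too, at 10.10 ± 0.32 against 11.38 ± 0.27 in DMSO cultures. These coefficients largely reflect the group differences that chose Car3.

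Car3 is best known from muscle and fat, and markers of those tissues were followed beside it. The summed signal of 10 skeletal muscle genes was 1741 to 3281 in Chd7 mutant arrays and 569 to 715 in control arrays, with 7 of the 10 genes not overlapping and higher in mutant arrays, beside 7.51% of all 18194 genes, where Car3 was lower. It was 525 to 613 under ICRF-193 and 549 to 671 under DMSO, and 983 to 1233 with and 540 to 575 without Smo2. Of 5 adipocyte markers, 1 was above the limit, Adipoq, a fat hormone. It averaged 7.26 in mutant and 7.14 in control cultures, 5.25 with ICRF-193 and 7.19 with DMSO, and 4.71 with and 7.63 without Smo2. Adipoq was thus lower with ICRF-193 (-1.95, groups not overlapping) and with Smo2 (-2.92, limma adjusted p = 0.000472). The dim markers Fabp4, Lep, Pparg and Retn did not follow it, and their groups overlapped in all 3 experiments. They differed by 0.12, 0, 0.14 and 0.41 with ICRF-193, and by -0.01, 0.23, 0 and 0.43 with Smo2. Pparg, an adipocyte regulator, was at the floor in Chd7 mutant and control arrays alike. In such bulk cultures, fewer cells of a type and less RNA per cell cannot be told apart.

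Car2 is the neighbour of Car3 on chromosome 3, in the gene order Car13, Car1, Car3, Car2, and it went the opposite way in Chd7 mutant cultures. Car2, a fast cytosolic enzyme abundant in oligodendrocytes and choroid plexus, read 7.71, 7.95, 7.59 and 7.74 in mutant CGNs, against 6.62, 6.78, 5.78 and 6.10 in control CGNs. The groups did not overlap, and the difference was 1.43 (2.69-fold higher; 7.75 ± 0.15 and 6.32 ± 0.46, SD, n = 4 each), with 1.13 and 1.72 within the sets. With ICRF-193 the arrays read 6.45, 5.39, 6.76 and 7.02, against 5.06, 6.65, 6.70 and 6.31 with DMSO, and they overlapped (difference 0.22). With Smo2, Car2 averaged 7.04 ± 0.11, against 7.05 ± 0.14 without it (SD, n = 3 each), a difference of -0.01 (SE 0.097) that did not pass limma's test (adjusted p = 0.941). It turned to 0.0056 when arrays were centred on their medians. Of the other genes of the cluster, Car1 and Car13 were dim: Car1 averaged 5.44 in mutant and 4.92 in control cultures, and Car13 6.11 and 5.48, with overlapping arrays.

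Oligodendrocyte markers were higher together with Car2 and Car8 in Chd7 mutant cultures. The summed signal of 9 oligodendrocyte lineage genes was 17898 to 25612 in Chd7 mutant and 5766 to 14554 in control arrays, and 4 of the 9 genes, such as Mbp, a myelin protein (13.47 in mutant and 12.22 in control), did not overlap and were higher in mutant arrays, beside 7.51% of all 18194 genes. With ICRF-193, 4 of the 9 were lower without overlap, beside 4.55% of all genes. The median difference of the 8 list genes above the limit was -0.69 with ICRF-193 and -0.61 with Smo2, where Car2 differed by 0.22 and -0.01. These genes were divided with Smo2. Limma called 4 lower (Sox10, Cnp, Mbp and Cldn11) and 3 higher (Pdgfra by 1.11, Olig2 by 1.19 and Olig1 by 0.32). Of all genes above the limit, 37.6% were called lower and 28.7% higher. With ICRF-193, Pdgfra differed by 0.68 with overlapping arrays. The summed signal was 6178 to 9179 with ICRF-193 and 7973 to 11597 with DMSO, and 8691 to 8925 with Smo2 and 11230 to 12348 without it. None of the 9 was at the floor in every array of a group, and Mog, a late myelin marker, was dim throughout. Choroid plexus genes, summed over 6, spanned 5085 to 29218 in mutant and 4994 to 8374 in control arrays. Astrocyte genes, summed over 9, spanned 10861 to 36929 and 8431 to 19099. Fibroblast and pericyte genes, summed over 7, spanned 5622 to 11564 and 2962 to 5990. Of these, 1 of 9 and 2 of 7 were higher in mutant arrays without overlap, and 0 lower. Of all 18194 genes, 7.51% were higher and 5.96% lower. The median difference above the limit was 0.72 for astrocyte, 0.83 for fibroblast and pericyte, 1.11 for oligodendrocyte lineage and -0.92 for microglia genes. The part of these cells in the Car2 and Car8 values was not tested.

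Car8 was dim by its mean over all arrays, with a difference in each experiment for its best probe set, 1427482_a_at. It read 8.30, 8.37, 6.90 and 6.62 in Chd7 mutant CGNs, against 7.26, 7.28, 5.26 and 4.96 in control CGNs. Arrays 1 and 2 stood above arrays 3 and 4 in both groups, so the groups overlapped, while the difference of 1.36 was 1.07 within the first set and 1.65 within the second. With ICRF-193, Car8 read 5.52, 5.47, 5.81 and 6.00, against 6.18, 6.45, 7.42 and 6.18 with DMSO (-0.86, groups not overlapping). With Smo2 it read 4.83, 5.14 and 4.44, against 5.77, 5.93 and 5.91 without Smo2 (-1.07). The groups did not overlap, and when all probe sets were tested without a limit on dim ones, the adjusted p was 0.0151 in limma.

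The genes most like Car8 over the 22 arrays were Mbp (r = 0.93), Sirt2, Cldn11, S100b and Cnp, of which Mbp, Cldn11 and Cnp are myelin genes. Car8 correlated with the mean of the 9 oligodendrocyte lineage genes at r = 0.91, and Car2 at r = 0.64, over the same arrays and with each experiment's mean subtracted. With the mean of 5 Purkinje cell markers, Car8 correlated at r = 0.30 over the 22 arrays. Over the 8 Chd7 arrays alone, the coefficient was 0.92 with Purkinje cell markers and 0.97 with oligodendrocyte lineage genes, in arrays that share their groups and sets. Of the 5, 1, Calb1, was above the limit, at 9.28 in mutant and 9.27 in control cultures, and Slc1a6, a glutamate transporter of Purkinje cells, was at the floor in all arrays. The dim markers Pvalb (7.89 in mutant and 6.70 in control) and Rgs8 (6.61 and 5.78) were higher in mutant arrays without overlap. That is 2 of the 5, with 0 lower, beside 7.51% of all 18194 genes higher. With Smo2, where Car8 was lower, Pvalb averaged 8.09 against 4.24 without it, Rgs8 5.67 against 5.49 and Calb1 6.66 against 7.39. With ICRF-193, where Car8 was lower too, Rgs8 averaged 6.82 against 5.53 with DMSO, without overlap, and Pvalb 5.39 against 5.79. The summed signal of the 5 ranged between 479 and 2397 in mutant and 625 and 1100 in control arrays. The type 1 inositol trisphosphate receptor was not analysed here. Of the other receptor genes, Itpr2 was above the limit, at 5.25 with ICRF-193 and 6.70 with DMSO, without overlap.

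**Figure D4:**
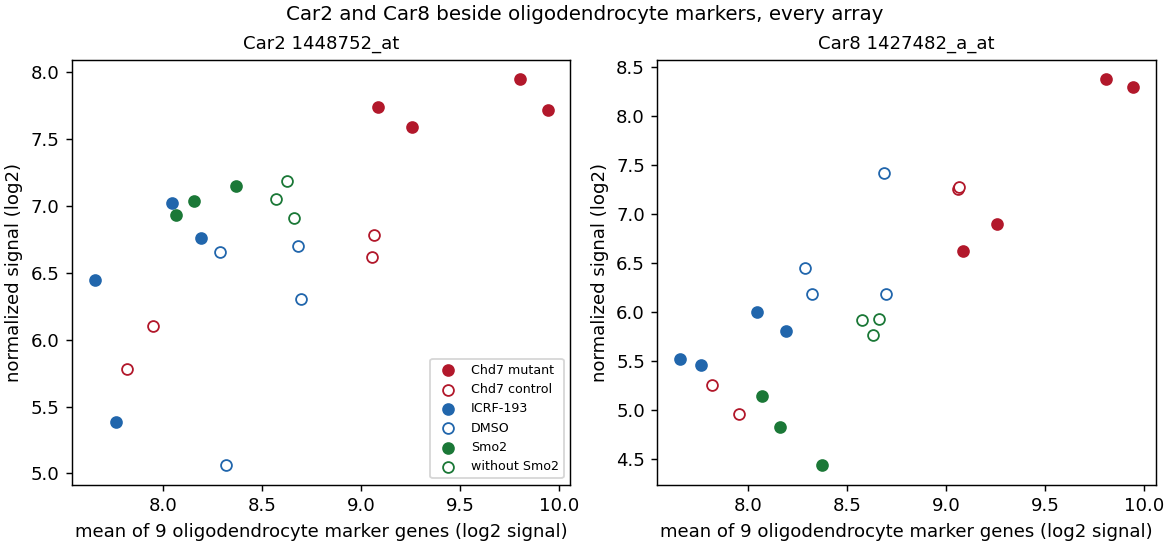
Normalized log2 signal of Car2 1448752_at and Car8 1427482_a_at (y axes) against the mean log2 signal of 9 oligodendrocyte lineage genes (x axis), with each of the 22 arrays as a point, filled for the mutant, ICRF-193 and Smo2 arrays. The 4 Chd7 mutant arrays have the highest marker means; over the 22 arrays, with each experiment's mean subtracted, r was 0.91 for Car8 and 0.64 for Car2.

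Car10 and Car11 are the neurexin ligands of the family. Their promoters are shown because both genes were called lower in the tested comparison, and because basic helix-loop-helix factors of granule cells such as Atoh1 and Neurod1 bind E-boxes. Car3 was called lower too, but no promoter window was available for it. Each window holds the 250 bases before a RefSeq transcript start of GRCm38.p6 on the plus strand, 5′ to 3′, with matches to the E-box CANNTG in capitals:
Car10, first start, chr11:93098116-93098365: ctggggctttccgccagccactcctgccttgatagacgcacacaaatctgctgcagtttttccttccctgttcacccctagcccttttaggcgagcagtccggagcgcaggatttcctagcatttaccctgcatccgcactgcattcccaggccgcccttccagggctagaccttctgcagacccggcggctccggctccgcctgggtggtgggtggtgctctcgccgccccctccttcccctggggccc
Car10, second start, chr11:93099040-93099289: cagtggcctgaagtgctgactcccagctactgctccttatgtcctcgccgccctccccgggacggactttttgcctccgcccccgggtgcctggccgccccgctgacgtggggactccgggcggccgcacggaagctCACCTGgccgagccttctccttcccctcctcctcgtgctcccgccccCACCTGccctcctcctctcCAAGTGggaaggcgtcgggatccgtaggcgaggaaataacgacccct
Car11, first start, chr7:45699554-45699803: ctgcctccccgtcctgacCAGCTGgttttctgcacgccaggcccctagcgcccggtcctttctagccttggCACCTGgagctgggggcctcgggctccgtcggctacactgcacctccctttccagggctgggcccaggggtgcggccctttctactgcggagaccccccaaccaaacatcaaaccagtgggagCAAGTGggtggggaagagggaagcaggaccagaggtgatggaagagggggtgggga
The first Car10 window holds 0 matches, the second 3 and the Car11 window 3. A second Car11 start, at chr7:45699717-45699966, overlaps the window shown and holds 1. A match is common, since 66.2% of 32851 promoter windows of the same length hold CANNTG on either strand. None of these windows holds the Gli motif GACCACCCA (0.225% of windows) or TATAAA (12.4%), both searched on both strands. A match to these letters is not a measured site. Windows were available for 6 of the 9 genes, and not for Car2, Car3 and Car8.

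Car10 1424547_at read 9.62, 9.43 and 9.51 with Smo2, against 11.11, 11.27 and 11.17 without it. The arrays within each group differed by less than 0.2, and the groups were far apart. The difference of -1.66 (SE 0.078, 3.17-fold lower) had a limma adjusted p of 2.14e-05, and of the 4 called probe sets it was the only one called in every alternative, the fit of all 22 arrays included. With ICRF-193, Car10 read 9.37, 9.49, 8.91 and 8.97, against 11.27, 11.32, 10.57 and 10.71 with DMSO, a difference of -1.78 (3.43-fold lower) that was -1.86 and -1.70 within the sets. In Chd7 mutant CGNs it read 11.01, 11.04, 10.92 and 10.92, against 11.87, 11.62, 11.45 and 11.38 in control CGNs (-0.61, 1.52-fold lower). None of these pairs of groups overlapped. The second Car10 probe set, 1431288_at, was dim and its groups overlapped in all 3 experiments (0.13, -0.36 and -0.19).

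Car10 is a very long gene of 504947 bp, longer than 98.8% of genes. Among the 335 genes over 300 kb, the median difference was -0.11 in Chd7 mutant, -0.48 in ICRF-193 and -0.80 in Smo2 cultures, and the 10th percentile was -0.78, -1.58 and -1.57. Car10 thus lay inside the central range of long genes in the mutant, and just below it in the other experiments. Genes with the most similar signal were Pkp4 and Sox5 (r = 0.97 each), Msra, Prkce and Pde4d, over 22 arrays. Car10 and Car3 correlated at r = 0.67.

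Car11 1424379_at read 6.55, 7.03 and 6.72 with Smo2, against 7.21, 7.21 and 7.71 without it. The groups did not overlap, and the difference was -0.61 (SE 0.18, limma adjusted p = 0.0280). The call was lost when any of 3 arrays was left out (limma adjusted p = 0.0555 without array 3 of the cultures without Smo2, 0.0824 without Smo2 array 1 and 0.0770 without Smo2 array 3), nor in the fit of all 22 arrays (0.281). In Chd7 mutant and control CGNs, Car11 averaged 6.89 ± 0.22 and 6.97 ± 0.21 (SD, n = 4 each). With ICRF-193 it read 7.27, 7.26, 6.32 and 4.47, against 7.29, 7.12, 6.59 and 6.97 with DMSO, a difference of -0.66 (0.06 within the first set, -1.39 within the second). Array 4 with ICRF-193 decided it, since the difference was -0.05 without that array.

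The neurexins, presynaptic receptors, were followed through probe sets of Nrxn2 and Nrxn3. Nrxn3 averaged 9.22 with ICRF-193 and 11.75 with DMSO, without overlap. With Smo2 it averaged 10.03, against 11.63 without Smo2 (-1.60, limma adjusted p = 2.87e-05). Nrxn2 was lower with Smo2 by 1.12 on the log2 scale (9.51 against 10.63, limma adjusted p = 8.57e-05). Both neurexins and both ligands were thus called lower with Smo2, where 37.6% of all genes above the limit were called lower and 28.7% higher.

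The membrane-bound enzymes were dim. Car4, a glycolipid-anchored enzyme of capillary walls, had 2 probe sets. Its probe set 1448949_at read 5.54, 5.15, 5.74 and 5.55 in Chd7 mutant CGNs, against 4.86, 4.00, 4.00 and 4.18 in control CGNs, of which 4.00 is the floor. The groups did not overlap, and the difference of 1.23 became 0.49 with a floor at a signal of 32 in place of 16. Probe set 1418094_s_at averaged 5.65 ± 0.62 in mutant and 4.48 ± 0.56 in control arrays, which overlapped, and read 4.00, 4.31 and 4.00 with Smo2, against 5.83, 4.83 and 5.19 without it (-1.18, limma adjusted p = 0.0372 without a limit on dim probe sets). With a floor of 32 its differences became 0.56 in mutant and -0.34 in Smo2 cultures. In ICRF-193 and DMSO cultures both Car4 probe sets overlapped.

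Car14, a transmembrane enzyme described in neurons, read 5.99, 6.38 and 6.54 with Smo2, against 4.86, 5.75 and 4.00 without it. It was the only member probe set that was higher with Smo2 without overlap, and the difference of 1.43 did not pass the test without a limit on dim probe sets (limma adjusted p = 0.0998). In Chd7 mutant CGNs Car14 read 7.61, 7.18, 5.35 and 5.61, against 5.96, 6.41, 5.84 and 5.91 in control CGNs, so that the difference was 1.20 within arrays 1 and 2 and -0.40 within arrays 3 and 4. Car12, a transmembrane enzyme with 3 probe sets, showed the same split in 1428485_at, with 6.93, 7.37, 5.62 and 5.69 in mutant against 5.84, 5.79, 5.97 and 6.22 in control CGNs. The summed signal of 6 choroid plexus genes split likewise, with 26640, 29218, 5092 and 5085 in mutant arrays 1 to 4, against 4994, 5449, 7480 and 8374 in control arrays. Ttr and Otx2 were the brightest of them (12.41 and 11.69 in mutant, 11.72 and 11.42 in control arrays), so the sum rests mainly on them. Otx2 averaged between 11.06 and 11.69 in all 6 groups. Of the 6 genes, 1, Folr1, was higher in mutant arrays without overlap, beside 7.51% of all 18194 genes, and Clic6 differed by -0.10. The mean log2 signal of the 6 was 8.58, 8.56, 7.50 and 7.38 in mutant arrays, against 7.57, 7.39, 7.48 and 7.57 in control arrays. Purkinje cell markers, summed over 5, split as well. Their sums were 2311, 2397, 571 and 479 in mutant arrays, against 1100, 1070, 625 and 647 in control arrays. Over the 8 Chd7 arrays, Car14 correlated with their mean at r = 0.87 and with that of choroid plexus genes at 0.90. For Car12 the coefficients were 0.71 and 0.95. The part of choroid plexus or Purkinje cells in the Car12 and Car14 values was not tested. The other Car12 probe sets lay at or near the floor, and 1446517_at was at the floor in all arrays of the other 5 groups and averaged 4.26 with Smo2. Car7, a cytosolic enzyme of neurons, was best seen by 1443824_s_at, at 6.53 ± 0.15 in mutant and 6.14 ± 0.22 in control, 5.97 ± 0.22 with ICRF-193 and 6.46 ± 0.42 with DMSO, and 5.88 ± 0.66 with and 6.36 ± 0.16 without Smo2, overlapping each time.

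**Figure D5:**
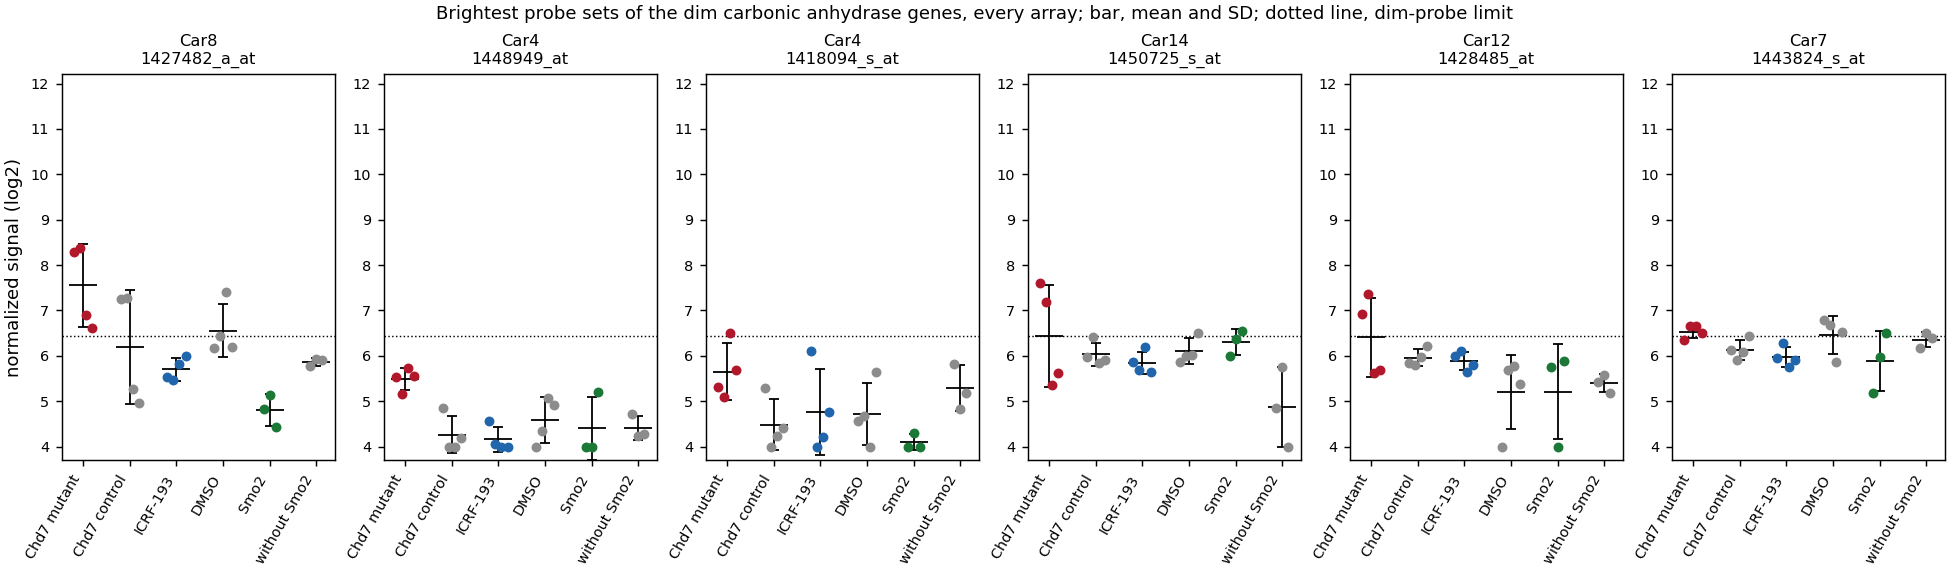
Normalized log2 signal (y axis) of the brightest probe sets of Car8, Car14, Car12 and Car7 and both of Car4 in the 6 groups (x axis), with each array as a point, mean and SD as bars, and the dim-probe limit of 6.437 dotted. Most points lie below the limit, and the Chd7 mutant arrays of Car8, Car14 and Car12 split into a higher and a lower pair.

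Of the 7 other carbonic anhydrase genes on the array, 1 was above the limit. Car15, a glycolipid-anchored enzyme, averaged 8.14 with Smo2 and 8.81 without it (-0.67, SE 0.095, limma adjusted p = 0.00138), and 7.74 with ICRF-193 and 8.34 with DMSO, without overlap. Of the 6 Slc4 bicarbonate transporters above the limit, 3 were called lower and 1 higher with Smo2, beside the 37.6% and 28.7% of all genes. Slc4a4, a sodium bicarbonate cotransporter, fell by 1.66 on the log2 scale with Smo2 (9.14 against 10.80), and was lower without overlap at 10.81 against 11.22 in Chd7 mutant and control CGNs and at 9.48 against 10.68 with ICRF-193 and DMSO. Slc4a10, a bicarbonate transporter of neurons, averaged 8.68 with Smo2 and 10.30 without it. Among monocarboxylate transporters, which carry lactate together with protons, Slc16a1 was higher without overlap in all 3 experiments (11.26 against 10.07 in mutant and control, 10.02 against 9.39 with ICRF-193 and DMSO, 11.22 against 9.21 with and without Smo2). Of 7 carboxylases that use bicarbonate and were above the limit, 3 were called lower and 2 higher with Smo2, which is about the 37.6% and 28.7% of all genes. Among the higher ones was Cad, which starts pyrimidine synthesis, at 9.78 against 8.40 without Smo2. Of the receptor phosphatases with a carbonic anhydrase-like domain, Ptprz1 averaged 8.35 with Smo2 and 9.28 without it, and Ptprg 8.75 with ICRF-193 and 10.00 with DMSO, without overlap. In Chd7 mutant and control cultures, Ptprz1 averaged 10.22 and 9.34, higher without overlap, and Ptprg 10.29 and 10.27. Ptprg was not called with Smo2 (9.93 against 9.83, limma adjusted p = 0.195). Of 3 sodium-proton exchangers above the limit, 1, Slc9a7, was called lower with Smo2 (8.76 against 9.53), again near the 37.6% of all genes.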

How the data were processed

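The deposited values are intensity signals of Affymetrix 430 2.0 probe sets on a linear scale; the authors scaled every array so that its mean, trimmed by 2% at each end, is 500, and the sources used here name no summarisation software. Signals under 16 were set to 16, log2 was taken, and the 22 arrays were quantile normalized because their medians ranged between 6.334 and 6.809. Probe sets with a mean of at least 6.437 (22551 of 45101) were tested. Each pair of groups was fitted alone with limma 3.58.1 in R 4.3.3 (lmFit, eBayes, two-sided) and Benjamini-Hochberg adjustment, with a call at an adjusted p under 0.05. The Smo2 fit was tested on simulated data, with 100 changes each of 0.5 and 1 (log2) among 22551 probe sets. It recovered 28% of the smaller and 82% of the larger changes, and 5.98% of 117 calls were wrong. Far fewer probe sets were changed there than were called in the data, so these shares need not hold for the data. The number of arrays limits the precision.

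Genes came from GEO's platform annotation: 34958 probe sets have 1 symbol, 932 several and 9211 none. Promoters and gene lengths came from RefSeq (GRCm38.p6). The members and lists were chosen with earlier results of these data known. All 20 member probe sets are named; of other lists, at most 3 genes, those with the largest called (Smo2) or not overlapping change, beside markers and genes that a result turns on. Similar genes are the 5 with the highest Pearson correlation. No 2 arrays held identical values.

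Same-numbered arrays deviated together from their group means in the Chd7 (r = 0.30 to 0.35) and ICRF-193 experiments (0.28 to 0.41), as did arrays of one set (1 and 2, or 3 and 4), and not in the Smo2 experiment (0.02 to 0.04). Alternatives changed the normalization, floor, filter, variance model, test, arrays in the fit, blocks and threshold, and each array in turn was left out of the fits. Figures were drawn with matplotlib 3.10.9.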

Additional observations from a re-analysis of the deposited data

How the results depend on the processing

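The array number limits what can be said, and values near the floor carry little information on size. The count of carbonic anhydrase probe sets called with Smo2, 4 in the fit described, was 2 with a stricter filter, because Car3 1460256_at and Car11 were then not tested, and 1 when all 22 arrays entered 1 fit, where Car3 1449434_at had the same difference of -0.49 with an adjusted p of 0.129. Leaving out each array in turn gave 3 to 4 calls; for Car3 1449434_at it gave -3.13 to -2.71 in the Chd7, -2.13 to -1.91 in the ICRF-193 and -0.56 to -0.41 in the Smo2 experiment. The count of probe sets that did not overlap was then 6 to 7 in the Chd7 and 6 to 8 in the ICRF-193 experiment, and the count with ICRF-193 was 5 without quantile normalization. Car2 with Smo2 turned to 0.0056 with arrays centred on their medians, and ranged between -0.079 and 0.060 when arrays were left out. Car11 lost its call without a filter (adjusted p = 0.0924) and in the methods' t-test with adjustment (0.0810). Car8 with Smo2 was -0.76 with log2 of signal plus 16. The order of groups for Car3 kept 4 of 6 places under median centring. With Spearman's rho, 2 of the 5 genes most like Car3 were shared, and 3 without subtraction of each experiment's mean. With the replicate number as a block, 4 probe sets were again called with Smo2, and Car3 1449434_at kept -0.49 (adjusted p = 0.0249).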
